A study of Rattus norvegicus with 8 samples.

Results

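Annexins are proteins that bind acidic phospholipids of the inner cell membrane when calcium rises, through a conserved core of repeats, while their amino-terminal tails differ and bind different partners. They take part in membrane repair, vesicle traffic and inflammation, and several of them have been used as markers of injured or preneoplastic liver. Here 8 annexin genes were followed in rat liver after furan: Anxa1, Anxa2, Anxa3, Anxa4, Anxa5, Anxa6, Anxa7 and Anxa11. They were found as the non-control probes whose gene name on the array was one of these symbols, which gave 9 of 30367 probes for 8 of 26115 gene names, and 8 of the 9 probes were among the 20268 probes tested. Anxa3 had a second probe, which was well above background on 1 control array and on no furan array and was not tested.

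The 8 arrays each hold liver RNA of 1 male Fisher 344 rat aged 18 weeks. Control animals numbered 4. The 4 others were dosed for 90 days by gavage with furan, a small heterocycle that causes liver tumours in rodents, receiving 8 mg per kg on each of 5 days of the week. Tissue was taken 24 hours after the final dose. What the controls received as a vehicle was not given in the sources. The arrays were read in 1 colour, and levels below are log2 signals relative to the 75th percentile of their array, which is 0.

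The 75th percentile of the signal lay between 827 and 1057 intensity units on the control arrays and between 1256 and 1596 on the furan arrays. All 12 hepatocyte markers listed were well above background on all 8 arrays. By the test described below 10 of them were called lower after furan (median log2 change -0.73), as were 16.9% of all tested probes. Control 2 stood apart from the other controls in biliary and ductular markers, with a summed linear level of 9.06 against 2.93 to 4.82. Control 1 stood apart in the summed level of the 12 endothelial markers, at 7.51 against 26.4 to 31.7 in the other controls and 16.3 to 19.3 in furan livers. It was also the lowest control for Anxa1, Anxa2, Anxa3 and Anxa5. Slide 1 carried livers 1 and 2 of each group, slide 2 carried livers 3 and 4 of each group, and all 8 arrays were scanned on 1 day.

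The probes behind the results are 60-base oligonucleotides, shown here because their sequence decides which family member each one reads. Anxa1 and Anxa2 are given by their first 30 bases and Anxa4, Anxa5 and Anxa7 in full, 5′ to 3′. Capitals mark the stretch in which the Anxa4 and Anxa7 probes were most alike.
Anxa1: tcccaaattataaatccctgtaagcaagtc
Anxa2: taccgtctgtgacatgagacacttcctcat
Anxa4: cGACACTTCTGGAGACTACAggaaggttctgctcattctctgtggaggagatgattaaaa
Anxa5: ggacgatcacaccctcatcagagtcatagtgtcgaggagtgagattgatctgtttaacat
Anxa7: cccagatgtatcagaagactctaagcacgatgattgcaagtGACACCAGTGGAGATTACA
In the capitals 15 of 19 bases were identical between Anxa4 and Anxa7, the closest of the 36 pairs among the 9 member probes aligned without gaps. On rn4, as annotated by the array, the Anxa2 probe lies at chr8:73933982-73934041 on the plus strand and the Anxa7 probe at chr15:4075590-4075649 on the plus strand. The Anxa5 probe lies at chr2:122950184-122950243, the Anxa4 probe at chr4:120890522-120890581 and the Anxa1 probe at chr1:223478470-223478529, all on the minus strand. Exon boundaries were not used here. The RefSeq gene table names 8 pseudogenes of Anxa2 and 4 of Anxa7, whose transcripts, if any, could bind the same probes.

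Furan livers had higher levels of 4 of the 8 annexins, and none of the 8 fell. Anxa2, which forms a membrane-bound complex with S100a10, was 6.37-fold higher, and Anxa5, the phosphatidylserine-binding annexin used to stain dying cells, was 3.92-fold higher. Anxa7, an annexin of secretory vesicles that binds sorcin, was 2.89-fold higher, and Anxa4, an annexin of epithelial cells, was 1.87-fold higher. Anxa1, Anxa3, Anxa6 and Anxa11 did not pass the test. Calls are at an adjusted p below 0.05 in limma's moderated test, with Benjamini-Hochberg adjustment over all 20268 probes. Of all tested probes 33.8% were called, 16.9% higher and 16.9% lower, and 5.01% were called higher with at least a 2-fold change, as were Anxa2, Anxa5 and Anxa7. The 8 annexins had a median log2 change of 0.52, against -0.03 over all tested probes. In bulk liver RNA, a change in the number of cells of a type and a change in RNA per cell cannot be told apart.

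**Figure D1:**
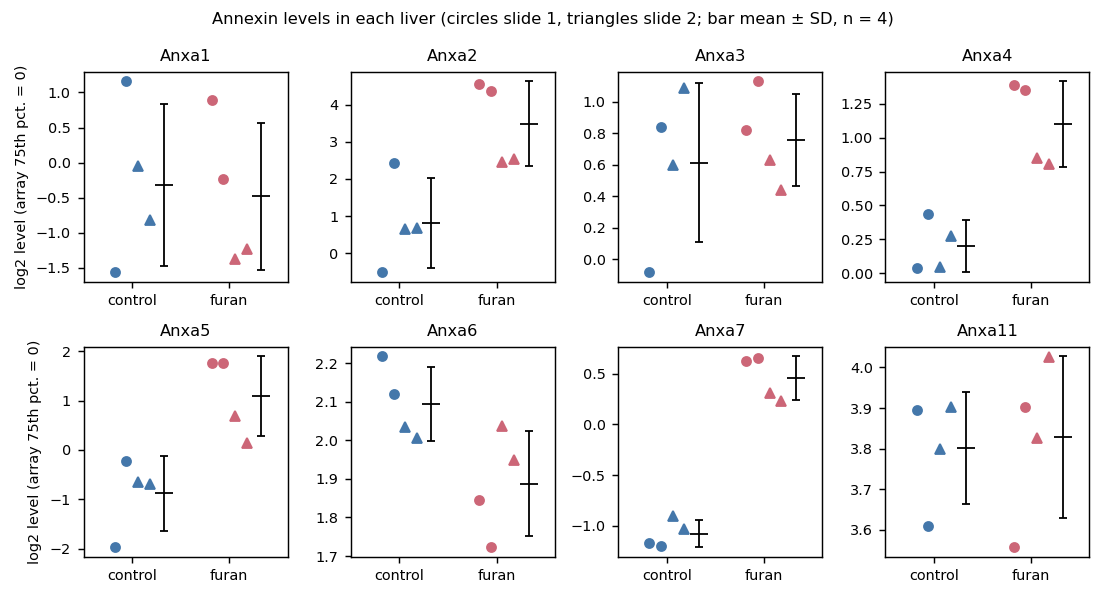
Log2 level of each annexin in each liver, relative to the 75th percentile of its array, on a separate axis for each gene. Points are single livers (blue control, red furan; circles slide 1, triangles slide 2) and black bars are the mean ± SD of 4 livers; the furan points of Anxa2, Anxa4, Anxa5 and Anxa7 all lie above the control points.

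Anxa2 had control levels of -0.51, 2.42, 0.65 and 0.67 (livers 1 to 4, as in all such sets of values). After furan its levels were 4.56, 4.37, 2.44 and 2.54. The groups did not overlap, but control 2, the highest control, lay just under furan 3, the lowest furan liver. Means were 0.81 ± 1.21 in control and 3.48 ± 1.14 in furan livers (SD, n = 4 each), which is a log2 change of 2.67 ± 0.71 SE (limma adjusted p = 0.0213). Over all alternatives the adjusted p ran from 0.00846 to 0.119. Leaving out control 3 (adjusted p = 0.0516), control 4 (0.0501) or furan 2 (0.0637) ended the call, as did using only slide 1 (0.119). Its change was 3.51 on slide 1 and 1.83 on slide 2.

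Anxa5 followed the same order of slides. Control livers had -1.97, -0.23, -0.65 and -0.68, and furan livers 1.76, 1.77, 0.69 and 0.14. Every furan liver was above every control, and control 1 was the lowest of the controls, as it was for Anxa2. Against a control mean of -0.88 ± 0.76 the furan mean was 1.09 ± 0.81 (SD, n = 4 each), which gives a log2 change of 1.97 ± 0.47 SE (limma adjusted p = 0.0145). Neither slide alone gave a call, with a change of 2.86 on slide 1 (adjusted p = 0.0815) and 1.08 on slide 2 (0.0530); the smallest adjusted p of its alternatives was 0.00559.

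Anxa7 was the most even of the members that rose. Its levels were -1.17, -1.20, -0.91 and -1.03 without furan and 0.62, 0.66, 0.31 and 0.23 with it. The gap between the groups was wider than the range within either. On the log2 scale the 2 spots of the probe differed by 0.78 in control 1 and by 0.42 in control 2. Group means of -1.08 ± 0.13 and 0.45 ± 0.22 (SD, n = 4 each) gave a log2 change of 1.53 ± 0.14 SE (limma adjusted p = 0.000381). It was called under all 20 alternatives, the slides taken alone included (1.82 on slide 1 and 1.24 on slide 2), with changes between 1.24 and 1.82 and adjusted p from 0.000115 to 0.0357.

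Anxa4 was at 0.04, 0.43, 0.04 and 0.27 in the controls. Furan livers stood at 1.39, 1.35, 0.85 and 0.81, with no overlap. From 0.20 ± 0.19 the mean went to 1.10 ± 0.31 (SD, n = 4 each), with a log2 change of 0.90 ± 0.18 SE (limma adjusted p = 0.00623). The change was 1.13 on slide 1 (adjusted p = 0.0704 there alone) and 0.67 on slide 2 (0.0723), over alternatives from 0.00297. For these 4 annexins the groups did not overlap. Of all tested probes 36.4% had no overlap, 18.4% with higher and 18.0% with lower furan levels.

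All 4 annexins that rose had their larger change on slide 1, where furan livers 1 and 2 lay. The difference between the slides was itself tested, with a slide by treatment term added after the data were seen. On the log2 scale the change was smaller on slide 2 by 1.68 for Anxa2 (limma adjusted p = 0.841), 1.78 for Anxa5 (0.807), 0.59 for Anxa7 (0.807) and 0.46 for Anxa4 (0.809). The SE of this difference was 1.17 for Anxa2, 0.74 for Anxa5, 0.19 for Anxa7 and 0.26 for Anxa4. No probe of 20268 passed that test, in which 1236 had an unadjusted p below 0.05. With 2 livers of each group on a slide, it cannot show that the changes on the slides were equal.

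**Figure D2:**
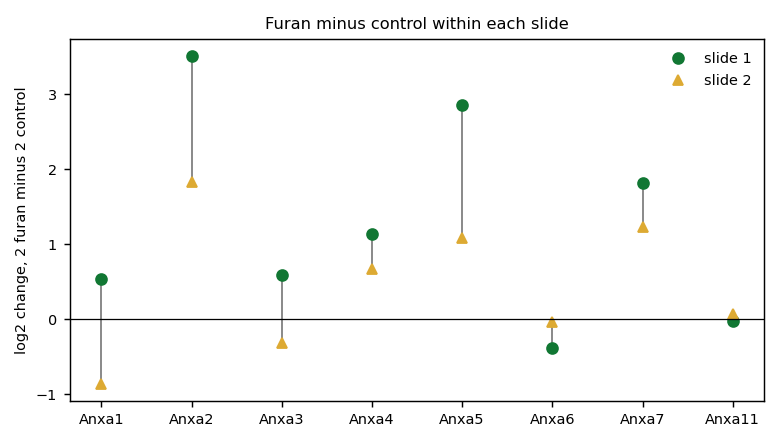
Log2 change of each annexin within slide 1 (green circles, 2 furan minus 2 control livers) and within slide 2 (yellow triangles), joined by a line for each gene. Anxa2, Anxa4, Anxa5 and Anxa7 are above 0 on both slides, while Anxa1 is at 0.54 on slide 1 and at -0.87 on slide 2.

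Anxa1, the glucocorticoid-induced annexin that signals through formyl peptide receptors, varied widely among livers of the same group (SD 1.16 in controls and 1.05 after furan) and was not called. Control levels were -1.56, 1.16, -0.05 and -0.82, and furan levels 0.90, -0.23, -1.37 and -1.23. The groups overlapped, with control 2 the highest liver and control 1 the lowest. The log2 change of -0.16 ± 0.67 SE (limma adjusted p = 0.875) had a 95% interval from -1.69 to 1.36, so changes of 2-fold in either direction lie within it. The sum of the stellate cell and fibroblast markers was also highest in control 2 among controls and in furan 1 among furan livers. The 9 tested of 12 had a summed linear level of 4.59, 16.4, 9.92 and 7.50 in the controls. The sum was 28.0, 14.2, 8.07 and 6.07 in the furan livers. Not every marker had this order: Col1a1 and Pdgfrb were at -0.41 and -0.33 in control 3, above -0.66 and -0.96 in control 2. None of the 9 was called (median change 0.29). Their part in the Anxa1 levels was not tested.

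Setting the change of Anxa2 against that of Anxa1 within each liver gave a narrower spread among controls, with an SD of 0.34 against 1.21 for Anxa2. After each gene was expressed relative to its own control mean, Anxa2 minus Anxa1 was -0.08, 0.14, -0.42 and 0.36 in the controls. It was 2.54, 3.47, 2.69 and 2.64 in the furan livers, a mean of 2.84 ± 0.43 (SD, n = 4). Anxa5 minus Anxa1 ran from -0.82 to 0.70 in the controls and from 1.42 to 2.63 in the furan livers. This pair of differences was chosen after the values were seen and is given without a test.

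Anxa3, which is found in myeloid and progenitor cells, had control levels of -0.08, 0.84, 0.60 and 1.09, while the furan levels were 0.82, 1.13, 0.63 and 0.44. The groups overlapped (log2 change 0.14 ± 0.26 SE, 95% interval from -0.45 to 0.74, limma adjusted p = 0.704). Without control 1, the lowest liver, the change was -0.09, and it was -0.31 on slide 2. Its second probe was not well above background on 7 of the 8 arrays.

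Anxa6 and Anxa11 had narrow ranges. Anxa6, the annexin with the longest core, had control levels of 2.01 to 2.22 and furan levels of 1.72 to 2.04, and all 4 furan livers were below the control mean. Its log2 change was -0.21 ± 0.11 SE (95% interval from -0.45 to 0.04, limma adjusted p = 0.173), with -0.39 on slide 1 and -0.03 on slide 2. Anxa11, an annexin with a long, flexible tail, ranged from 3.61 to 3.90 without furan and from 3.56 to 4.03 with it. Its log2 change was 0.03 ± 0.13 SE, with a 95% interval from -0.27 to 0.33, which leaves out a rise of the size seen for Anxa4.

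**Figure D3:**
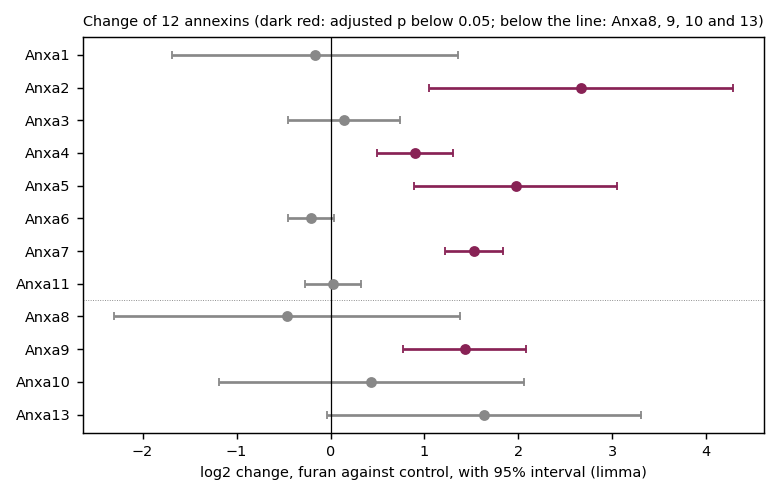
Log2 change after furan of 12 annexins, each as a point with its 95% interval from limma; the 8 members stand above the dotted line and the 4 other annexins below it. Dark red marks an adjusted p below 0.05, reached by Anxa2, Anxa4, Anxa5, Anxa7 and Anxa9.

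The 4 other annexins on the array were all tested, and 1 rose. Anxa9, an annexin whose core has lost its calcium sites, went from -6.08 ± 0.54 to -4.65 ± 0.36 (SD, n = 4 each), for which the log2 change was 1.43 ± 0.29 SE (limma adjusted p = 0.00693). At these dim signals the background correction mattered: with normexp correction the change was 0.08 and was not called (adjusted p = 0.549, the highest of the alternatives, which began at 0.00171). The call was also lost with only slide 1 (0.0935). Anxa13, an intestinal annexin, had a log2 change of 1.64 (adjusted p = 0.117), with control 2 at -2.42, above furan 3 at -3.37 and furan 4 at -3.76. Anxa8 had -0.46 (adjusted p = 0.694) and Anxa10 0.44 (adjusted p = 0.671). The Anxa10 probe was well above background on 3 of 4 control arrays. Its level was -8.78 in control 1, against -5.64 to -5.21 in the other controls and -6.25 to -5.66 in furan livers.

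S100 proteins are small calcium-binding proteins, and S100a10, S100a11 and S100a6 bind annexin tails. Of 14 listed, 12 were tested: 2 rose, 2 fell and 8 did not pass, with a median log2 change of 0.03. Over all tested probes 16.9% were called higher and 16.9% lower, the shares to set beside this and the later list counts. S100a10, the partner of Anxa2, stood at -0.69, 1.39, 0.23 and 0.20 in controls. Furan livers had 2.97, 3.18, 1.13 and 1.28. Its order among livers resembled that of Anxa2: control 2 was the highest control, above furan 3 and 4, and furan 1 and 2 were the highest livers. The log2 change was 1.86 ± 0.59 SE (limma adjusted p = 0.0406), and this call held in 13 of 20 alternatives (adjusted p from 0.0184 to 0.108). It was lost without control 1 (0.0919), control 3 (0.0835), control 4 (0.0829), furan 1 (0.0870) or furan 2 (0.107). The change was 2.73 on slide 1 and 0.99 on slide 2.

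Relative to its own control mean, Anxa2 exceeded S100a10 by 1.07, 0.67, 0.79 and 0.74 in the furan livers, while the same difference was -0.35, 0.51, -0.10 and -0.06 in the controls. This pair too was chosen after the values were seen and has no test. S100a11, a partner of Anxa1, did not pass the test (log2 change 0.61, adjusted p = 0.570). It was highest in control 2, furan 1 and furan 2, at 0.50, 0.94 and 0.26, and between -2.08 and -1.52 in the 5 other livers. S100a6 had levels of 2.12 in control 2 and 2.30 in furan 1, against at most 1.00 elsewhere (log2 change 0.43, adjusted p = 0.747).

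**Figure D4:**
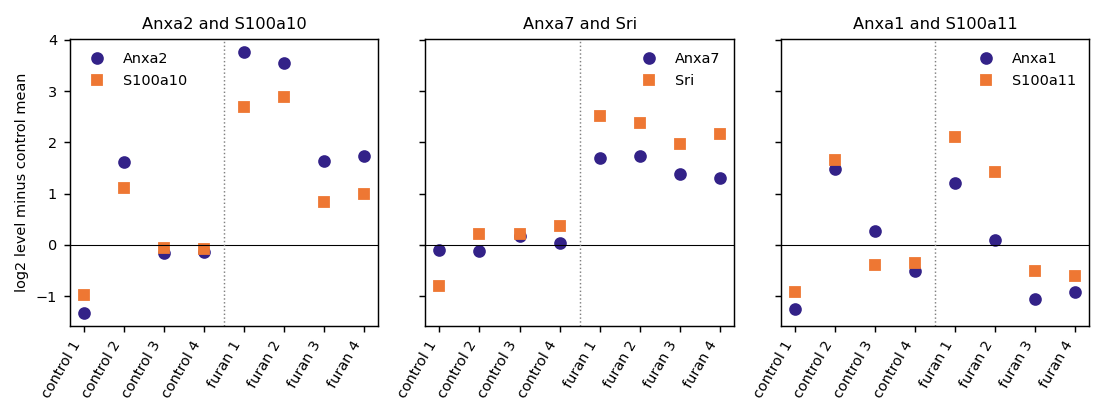
Log2 level minus the control mean of the same gene in each of the 8 livers, for Anxa2 with S100a10, Anxa7 with Sri and Anxa1 with S100a11; dark circles are the annexin and orange squares its partner. Anxa7 and Sri are above 1.3 in every furan liver, whereas Anxa1 and S100a11 are below 0 in furan 3 and furan 4.

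The S100 gene with the largest rise was S100g, the calbindin of calcium-absorbing epithelia, from -4.78 ± 0.70 to -2.28 (log2 change 2.51 ± 0.56 SE, limma adjusted p = 0.0104; 1.45 with normexp and still called, and 1.33 on slide 2 alone, where adjusted p = 0.0949). S100a9, a subunit of the neutrophil protein calprotectin, fell by 1.65 on the log2 scale (adjusted p = 0.0406), with furan 1 at -2.62 above control 2 at -2.87. That call held in 12 of 20 alternatives (adjusted p up to 0.307), and it was lost without control 1, 3 or 4 or furan 2, 3 or 4, with a change of -1.19 without control 1 (adjusted p = 0.0606) to -1.80 without control 3 (0.0588). S100a5, with dim signals, fell by 0.56, from a mean of -4.87 to -5.43. That call held in 9 of 20 alternatives and was lost without control 1, 2 or 3 or furan 2, 3 or 4 (adjusted p up to 0.242 over its alternatives). Neutrophil markers were partly readable: 6 of 12 were tested, 3 of them fell, and Mpo, Elane, Cxcr2, Mmp8, Mmp9 and Ngp were not tested. The summed linear level of those 6 was 0.864 to 1.72 in controls and 0.427 to 0.746 in furan livers, with S100a9 among them.

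Genes of membrane repair and annexin partners rose in 5 and fell in 1 of the 13 tested, of 14 listed (median log2 change 0.23). Sri, or sorcin, the calcium-binding partner of Anxa7, had control levels of -2.46, -1.46, -1.46 and -1.29. With furan they were 0.86, 0.71, 0.30 and 0.51. All furan livers lay above the highest control, and the log2 change was 2.26 ± 0.26 SE (limma adjusted p = 0.000979), with 2.74 on slide 1 alone (adjusted p = 0.0523). Hltf, a chromatin remodeller that binds the complex of Anxa2 and S100a10, rose by 1.50 ± 0.14 SE (adjusted p = 0.000411). Ezr, or ezrin, which ties actin to the membrane, rose by 1.48 (adjusted p = 0.00688). The calpain protease gene Capn1 rose by 0.73 (adjusted p = 0.00205), with no call on slide 1 alone (0.0896) or slide 2 alone (0.0665), while Ahnak, a large scaffold that binds Anxa2 and S100a10, had 0.01 (adjusted p = 0.989). Dysf, the membrane repair protein dysferlin, had 0.30 (adjusted p = 0.433).

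Anxa2 with S100a10 on the cell surface binds plasminogen and its activator. Of 8 tested genes of the plasminogen system, of 10 listed, 1 rose and 3 fell (median log2 change 0.17). Plgrkt, a plasminogen receptor of the cell membrane, rose by 1.12 ± 0.18 SE (limma adjusted p = 0.00312). The liver-made plasma proteins fell: Plg, plasminogen itself, by 0.78 (adjusted p = 0.00327), Cpb2, an inhibitor of fibrinolysis, by 1.11 (0.00294) and Serpinf2, the plasmin inhibitor, by 0.65 (0.00877, with no call on either slide alone). With quantile normalization the fall of Plg was 0.23 and was not called (adjusted p = 0.131, the highest of its alternatives), nor was it on either slide alone. Plat, the tissue activator that the Anxa2 complex binds, had 0.69 (adjusted p = 0.388).

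Anxa1 acts through formyl peptide receptors and restrains the release of arachidonic acid. Of 14 listed receptors and eicosanoid enzymes 8 were tested, none rose and 2 fell (median log2 change -0.42). Of the receptors only Fpr1 was tested, with a log2 change of -0.41 (limma adjusted p = 0.443), and Fpr2, Fpr2l and Fpr3 were not. Ltc4s, the leukotriene C4 synthase, fell by 1.91 ± 0.33 SE (adjusted p = 0.00417), and Ptgs1, cyclooxygenase-1, fell by 0.50 (adjusted p = 0.0171). The Ptgs1 call was lost with the replicate block (0.0691), without control 2 and furan 1 together (0.0622), on slide 1 alone (0.171) and on slide 2 alone (0.177). On slide 1 alone the calls of Ltc4s (0.107), Ezr (0.0910), Plgrkt (0.117) and Cpb2 (0.0641) were lost as well. Pla2g4a, the cytosolic phospholipase that annexins inhibit in vitro, had 0.37 (adjusted p = 0.376).

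**Figure D5:**
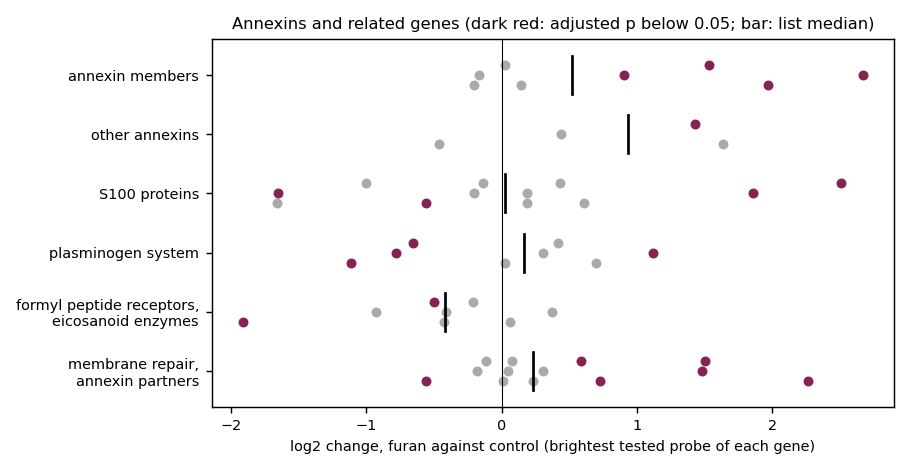
Log2 change after furan of each tested gene in the annexin list and the 5 related lists, with the brightest tested probe of each gene; dark red points have an adjusted p below 0.05 and black bars are list medians. The medians run from -0.42 for formyl peptide receptors and eicosanoid enzymes to 0.93 for the other annexins.

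Biliary and ductular markers, whose cells also express annexins, were described beside these changes. Of 12 listed, 11 were tested and 4 rose, with a median log2 change of 0.86. Their summed linear level was 2.93 to 9.06 in controls and 6.45 to 15.4 in furan livers. Cdh1, the brightest of the 11 (mean 1.50 in controls and 2.36 in furan livers), weighs most in this sum. The median deviation of the 11 from their control means weighs them alike. By it control 2 (1.71) lay above furan 2, 3 and 4 (1.39, 0.66 and 0.46) and below furan 1 (2.60). Epcam, an epithelial adhesion gene, rose by 1.79 (limma adjusted p = 0.00748) and the claudin Cldn7 by 1.54 (adjusted p = 0.0323). Epcam had control levels of -1.80, -0.69, -1.59 and -1.67 and furan levels of 1.17, 0.60, 0.04 and -0.39, with every furan liver above every control. Krt19, the classical duct keratin, had -3.76, 0.32, -3.28 and -4.33 in controls. Its furan values were 0.71, -1.72, -3.62 and -3.52, and it was not called (adjusted p = 0.686). The part of biliary and ductular cells in the annexin levels was not tested.

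The 4 annexin calls were also made with either of the controls that stood apart left out. Without control 1, the log2 changes were 2.23 for Anxa2 (limma adjusted p = 0.0471), 1.61 for Anxa5 (0.0260), 1.50 for Anxa7 (0.00165) and 0.85 for Anxa4 (0.0181). Without control 2 they were 3.21 for Anxa2 (0.0102), 2.19 for Anxa5 (0.0173), 1.49 for Anxa7 (0.00158) and 0.98 for Anxa4 (0.0102).

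Other cell types and states were described beside the annexins. Of 12 macrophage and 12 endothelial markers tested, none passed, with median log2 changes of -0.16 and -0.07. Most endothelial markers were lowest in control 1. Lyve1, a sinusoidal endothelial receptor, was at -3.51 there against -0.08 to 0.32 in the other controls and -0.79 to -0.39 in furan livers. Cdh5 and Vwf did not stand apart there: Cdh5 was at -2.33 against -2.48 to -2.28 in the other controls. Vwf was at -0.71 in both control 1 and control 4. Of 8 lymphocyte and 2 mast cell markers tested, none passed either. Proliferation genes rose in 11 of 12 (median 2.60), led by Rrm2 (3.43) and Aurkb (3.20). Aurkb was well above background on 1 of 4 control arrays and was tested through its furan arrays. Its control mean of -8.26 is near background, so the size of its change is uncertain. Preneoplastic genes rose in 5 of 12 (median 1.12), led by Gstp1 (4.74) and Akr1b8 (4.62). The hepatocyte genes F9 and Pck1 fell by 1.57 and 1.16. The neutrophil receptor gene Csf3r, with dim signals, fell by 1.06, from a mean of -5.28 to -6.35. The part of these cell types and states in the annexin changes was not tested.

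The genes closest to each annexin were found by the root-mean-square difference between levels, each relative to its control mean, over 8 arrays and 14523 probes. Anxa7 was closest to Odc1, the first enzyme of polyamine synthesis, with a difference of 0.143, and to Ankrd13b (0.147). Anxa2 was closest to the tubulin gene Tubb6 (0.345) and the kinesin gene Kif12 (0.368), and Anxa5 to Tlcd3a (0.173) and the actin regulator Carmil1 (0.242). Anxa4 was closest to Cep20 (0.0528) and Castor1 (0.0901). Anxa1 was closest to Itgbl1 (0.215) and Fhl1 (0.279), Anxa3 to Cd38 (0.100) and Cers1 (0.134), Anxa6 to Psmd3 (0.0366) and Hirip3 (0.0529), and Anxa11 to Msl3 (0.0307) and Ube2v1 (0.0467). Genes that change little are close to one another by this measure.

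Promoters were read from RefSeq (GRCr8 build), which matched 7 of the 8 members, all but Anxa6. The 250 bases before the start of Anxa2, which rose, and of Anxa1, which was not called, are shown because they are the members with a TATAAA match. Capitals mark motif matches on either strand: TGANTCA (AP-1), TGACNNNGC (the core of the antioxidant response element), GGGCGG (GC box), CCAAT and TATAAA.
Anxa1: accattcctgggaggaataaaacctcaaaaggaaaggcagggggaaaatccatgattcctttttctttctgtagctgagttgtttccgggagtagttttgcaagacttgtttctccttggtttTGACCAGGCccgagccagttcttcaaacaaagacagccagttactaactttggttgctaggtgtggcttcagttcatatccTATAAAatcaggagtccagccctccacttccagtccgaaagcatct
Anxa2: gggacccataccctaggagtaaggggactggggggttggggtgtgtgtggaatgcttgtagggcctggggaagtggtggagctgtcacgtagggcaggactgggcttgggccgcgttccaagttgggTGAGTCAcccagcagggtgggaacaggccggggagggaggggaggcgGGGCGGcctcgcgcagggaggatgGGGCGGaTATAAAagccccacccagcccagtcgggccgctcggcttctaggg
These windows lie at chr1:227303733-227303982 on the minus strand for Anxa1 and at chr8:78986002-78986251 on the plus strand for Anxa2. TATAAA began at position -46 in Anxa1 and -45 in Anxa2, and 12.9% of 33469 promoters held it. TGANTCA was matched in 1 of the 7, Anxa2, at position -123, and in 6.34% of all promoters. TGACNNNGC was matched in 1, Anxa1, at position -127, and in 10.1% of all. GGGCGG was in 5 of 7 members and 30.5% of all promoters, and CCAAT in 2 of 7 and 34.0%. The matches are a description of the letters in these windows.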

How the data were processed

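Liver RNA of 4 control and 4 furan-treated rats was hybridised to 1-colour (Cy3) Agilent arrays. Agilent Feature Extraction 10.7 is named in the submitters' processing notes. Its processed signal, from which background is already subtracted, is the intensity the authors deposited for each of 62976 spots, of which 58717 were not controls. The deposited series table equalled this signal divided by a constant for each array.

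Spots marked as non-uniform or population outliers were left out, log2 signals minus the array's log2 75th percentile were averaged by probe, and 170 of 30367 probes without a usable spot on every array were dropped. The 2 spots of a member probe differed by a median of 0.06 on the log2 scale, and by at most 0.78, for Anxa7 in control 1. A probe counted as well above background where at least 50% of its usable spots did, and was tested where this held on all 4 arrays of a group. Furan was compared with control with limma 3.58.1 in R 4.3.3 (two-sided, no block), which was tested on simulated data. The simulation had 200 changed probes and independent noise, so it does not cover differences that many genes of a liver share. The number of arrays limits the precision. For gene lists the brightest tested probe of a gene was used, with names through RefSeq accession for 18383 probes and otherwise by symbol or synonym. Summed levels add linear signals, with the 75th percentile of the array at 1.

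The members and lists were chosen with earlier results of these data known. Named were all member probes, up to 4 called genes of each related list and up to 2 of each cell type or state list by size of change, and the 2 genes closest to each member. Further list genes are named for their known tie to an annexin and were chosen after their values were seen. Same-numbered animals did not deviate together (correlations of -0.30, 0.11, 0.28 and 0.04), so the numbers were not used as pairs. Alternatives changed the background correction, normalization, dim-probe filter, probes of a gene, variance trend, slide, replicate block and arrays.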

Additional observations from a re-analysis of the deposited data

Results flagged for a closer look

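Among 46 groups of 4 livers checked, 1 held a liver far from its group. The groups were the annexin members and the called genes named from the related lists, each in control and in furan livers. Anxa8, Anxa10 and Anxa13 were not checked. Sri in control 1 was at -2.46, against -1.46 to -1.29 in the other controls, a gap of 0.854 of the range of the group. By chance about 5% of such groups hold one.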

How the results depend on the processing

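Anxa7 kept its direction and its call under all 20 alternatives, and Anxa2, Anxa4 and Anxa5 kept their direction. With 1 array left out at a time, the number of member probes called higher ran from 3 to 4, none was called lower, and over all probes 2484 to 3370 were higher and 2217 to 3403 lower; the related lists had 7 to 10 higher and 6 to 8 lower. On slide 1 alone, with 2 livers a group, 1 member probe, 2 related genes and 322 of all probes were higher, and 0 related genes and 207 of all probes lower. On slide 2 alone 2 member probes and 939 of all probes were higher and 678 of all probes lower. These fits have fewer arrays. With normexp 3071 probes were higher and 7111 lower (30.2% of calls higher, against 50% in the main result) and the median change of all probes was -0.19 against -0.03; the 4 annexin calls remained, and the cause was not tested. With the replicate block 2638 probes were higher and 2472 lower, with 4 member probes higher; 1 of 4 control livers correlated best with its own number. Anxa1 turned to 0.54 on slide 1 alone, 0.33 without control 2, 0.13 without furan 3 and 0.08 without furan 4. Anxa3 turned to -0.31 on slide 2 alone and -0.088 without control 1. Anxa11 turned to -0.021 on slide 1 alone, -0.037 without control 2 and -0.039 without furan 4. With 1 array left out, Anxa1 ran from -0.62 to 0.33, Anxa3 from -0.088 to 0.30 and Anxa11 from -0.039 to 0.12. None of these 3 genes was called in any fit, and the cause was not tested. Probes near background, such as that of Anxa9, have signals that depend on the correction.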
